A study of Mus musculus with 16 samples.

Results

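The 7 genes described here belong to the programme of IL-17-producing helper T cells: the nuclear factors Rora and Ahr, the cytokines Il17a, Il17f and Il22, and the receptors Il23r and Il1r1. They were chosen by name, with earlier results of these data known. Every probe assigned to them on the array was kept. This gave 8 probes of 55681, since Ahr has 2 probes and each other gene 1. All 8 probes were well above background on at least 2 arrays and entered the tests. The 16 arrays measured total RNA of sorted spleen CD4+ T cells from male mice of 8 to 10 weeks, all of which carried Cre recombinase driven by the CD4 promoter (CD4cre). NEMO knockout mice carried floxed alleles of Ikbkg as well (NEMOfl/fl) and had 2 arrays with nephritis and 2 without. IKK2 knockout mice carried floxed alleles of Ikbkb (IKK2fl/fl) and had 3 and 3 arrays, and control mice, which carried CD4cre alone, had 3 and 3. Nephritis was nephrotoxic serum nephritis, induced by injecting sheep serum at 2.5 mg per g of body weight into the abdomen, and organs were taken on day 10. The CD4 promoter is active while thymocytes carry both CD4 and CD8, so the deletion also reaches CD8 T cells, and it was checked by the submitters with PCR.

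Canonical NF-kB signalling runs through the IkB kinase complex, in which IKK2 carries out the phosphorylation and NEMO holds the complex together. In T helper cells, IL-6 with TGF-beta starts the Th17 programme through STAT3 and nuclear receptors such as RORa (Rora), while IL-1 and IL-23, received by Il1r1 and Il23r, extend and stabilise it. The products IL-17A and IL-17F draw neutrophils to inflamed tissue such as the kidney in glomerulonephritis, and IL-22, whose expression in T cells depends on the ligand-activated factor Ahr, acts on epithelia. The same receptors and cytokines are used by gamma delta T cells of the IL-17 type and by group 3 innate lymphoid cells.

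RefSeq's promoter table (GRCm38.p6) had windows for 6 of the 7 genes, all but Ahr. Windows of 300 bases, from 250 before the start to 50 after it, were searched on both strands for 4 motifs: AGGTCA, the core bound by ROR receptors; GCGTG, the core bound by Ahr; a kB site, GGG followed by NNN and TTCC; and TTCNNNGAA, a STAT site. Of 32851 promoter windows of this length, 16.3% held AGGTCA, 32.4% GCGTG, 5.56% the kB site and 8.3% the STAT site. The 250 bases before the start are shown for the 3 genes with an AGGTCA match there and for the Il1r1 window with a kB match, 5′ to 3′ on the strand of the gene, with every match in capitals.
Il17a (chr1:20730655-20730904, plus strand): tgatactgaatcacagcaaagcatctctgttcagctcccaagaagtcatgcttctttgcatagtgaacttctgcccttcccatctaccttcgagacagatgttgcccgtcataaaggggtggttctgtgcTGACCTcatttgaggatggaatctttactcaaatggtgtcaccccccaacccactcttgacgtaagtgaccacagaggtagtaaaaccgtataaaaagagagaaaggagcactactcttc
Il17f (chr1:20784271-20784520, minus strand): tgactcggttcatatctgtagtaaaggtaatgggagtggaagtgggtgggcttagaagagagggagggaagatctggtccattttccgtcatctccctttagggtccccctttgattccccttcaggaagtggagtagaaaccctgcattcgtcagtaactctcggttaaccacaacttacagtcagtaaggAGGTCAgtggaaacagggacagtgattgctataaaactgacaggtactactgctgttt
Il23r (chr6:67491856-67492105, minus strand): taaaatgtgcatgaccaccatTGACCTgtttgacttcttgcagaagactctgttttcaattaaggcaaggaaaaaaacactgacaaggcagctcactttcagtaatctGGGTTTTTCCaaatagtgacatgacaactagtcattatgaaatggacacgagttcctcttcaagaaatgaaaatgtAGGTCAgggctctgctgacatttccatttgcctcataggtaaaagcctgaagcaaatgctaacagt
Il1r1, second window (chr1:40266336-40266585, plus strand): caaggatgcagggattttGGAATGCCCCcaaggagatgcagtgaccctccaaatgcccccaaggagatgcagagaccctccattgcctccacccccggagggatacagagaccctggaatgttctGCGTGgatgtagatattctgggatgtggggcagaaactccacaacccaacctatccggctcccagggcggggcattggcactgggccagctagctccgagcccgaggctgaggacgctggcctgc
The Il17a match begins 120 bases before the start on the opposite strand, and the Il17f match 58 bases before it on the strand of the gene. Il23r held AGGTCA at 66 bases before its start, the same core on the opposite strand at 229, and a kB match at 142. In the Il1r1 window the kB match lies on the opposite strand at 232 and a GCGTG match at 125. Rora held GCGTG on the opposite strand at 167 bases before its start, and Il22 held none of the 4. A match describes letters and shows no binding.

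Levels are given as log2 of the spot intensity minus the 75th percentile of that array, so that 0 is the brightness of the 75th percentile probe. A probe is called measured on an array where the scanner software marked it as well above background. Differences are the first named group minus the other, with the standard error (SE) of a linear model over all 16 arrays (limma) and a p adjusted by Benjamini-Hochberg over the 34938 probes tested, and a gene is called where that p is under 0.05. Whether replicate arrays stand for different mice is not stated in the labels, so a p-value here covers just the variation among these samples, which may be technical.

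Between 57.9% and 59.8% of spots were well above background on NEMO knockout arrays, 50.8% to 57.2% on IKK2 knockout arrays and 48.9% to 56.2% on controls, and the 75th percentile of intensity was 379 to 419, 278 to 364 and 237 to 346, so that the 4 NEMO knockout arrays were above all others in both. The part of this in the differences was not tested. Arrays of a group correlated across probes at 0.971 to 0.991. Untreated control replicate 1 had the lowest 75th percentile, and nephritic control replicate 2 the lowest share of spots above background and the lowest correlations with its group (0.971 and 0.979). All 4 NEMO knockout arrays were on slide 3 and no other arrays were, so for every NEMO comparison genotype and slide cannot be told apart. The 3 nephritic control arrays were on slide 1 and the 3 untreated ones on slide 2, while IKK2 knockout arrays were on slide 1 except untreated replicate 3, on slide 2. Ikbkb read 2.91 to 3.02 in nephritic IKK2 knockout arrays against 3.18 to 3.45 in nephritic controls, and 2.88 to 3.31 in untreated IKK2 knockout arrays against 3.29 to 3.31 in untreated controls. The brighter Ikbkg probe read -0.71 and -0.59 in nephritic NEMO knockout arrays against -0.40 to -0.26 in nephritic controls, and -0.94 and -0.74 in untreated NEMO knockout arrays against -0.85 to -0.52 in untreated controls. The dimmer Ikbkg probe read -1.62 and -1.51 against -1.75 to -1.39 with nephritis and -1.83 and -1.82 against -1.87 to -1.41 without, and overlapped between these groups. The place of these probes relative to the deleted exons is not known here, so they check nothing about the deletion. All 8 T cell markers of the CD4 list (Cd3d, Cd3e, Cd3g, Cd4, Cd5, Cd28, Lck and Cd247) were measured in every group.

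All 7 genes were higher in NEMO knockout T cells than in control and in IKK2 knockout T cells, with and without nephritis. The 7 of 7 called as higher compare with 13.8% of all probes called as higher for NEMO knockout minus control with nephritis and 14.5% without, and with 13.9% and 11.1% for NEMO knockout minus IKK2 knockout. The median difference of the 7 genes was 3.33 with nephritis and 3.30 without against controls, where the median over all probes was -0.19 and -0.17. Against IKK2 knockout cells it was 3.32 with nephritis and 3.17 without, where all probes had a median of -0.21 and -0.15. Each of the 7 genes also had its 4 NEMO knockout arrays above all 12 others, as did 10.5% of all probes. These counts are a description, since the genes were chosen with earlier results of these data known. Il17a was measured on the 4 NEMO knockout arrays alone. It entered the tests only through the group where it is high, so its call and separation add no support. In bulk RNA, more cells of a type and more RNA per cell cannot be told apart.

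**Figure D1:**
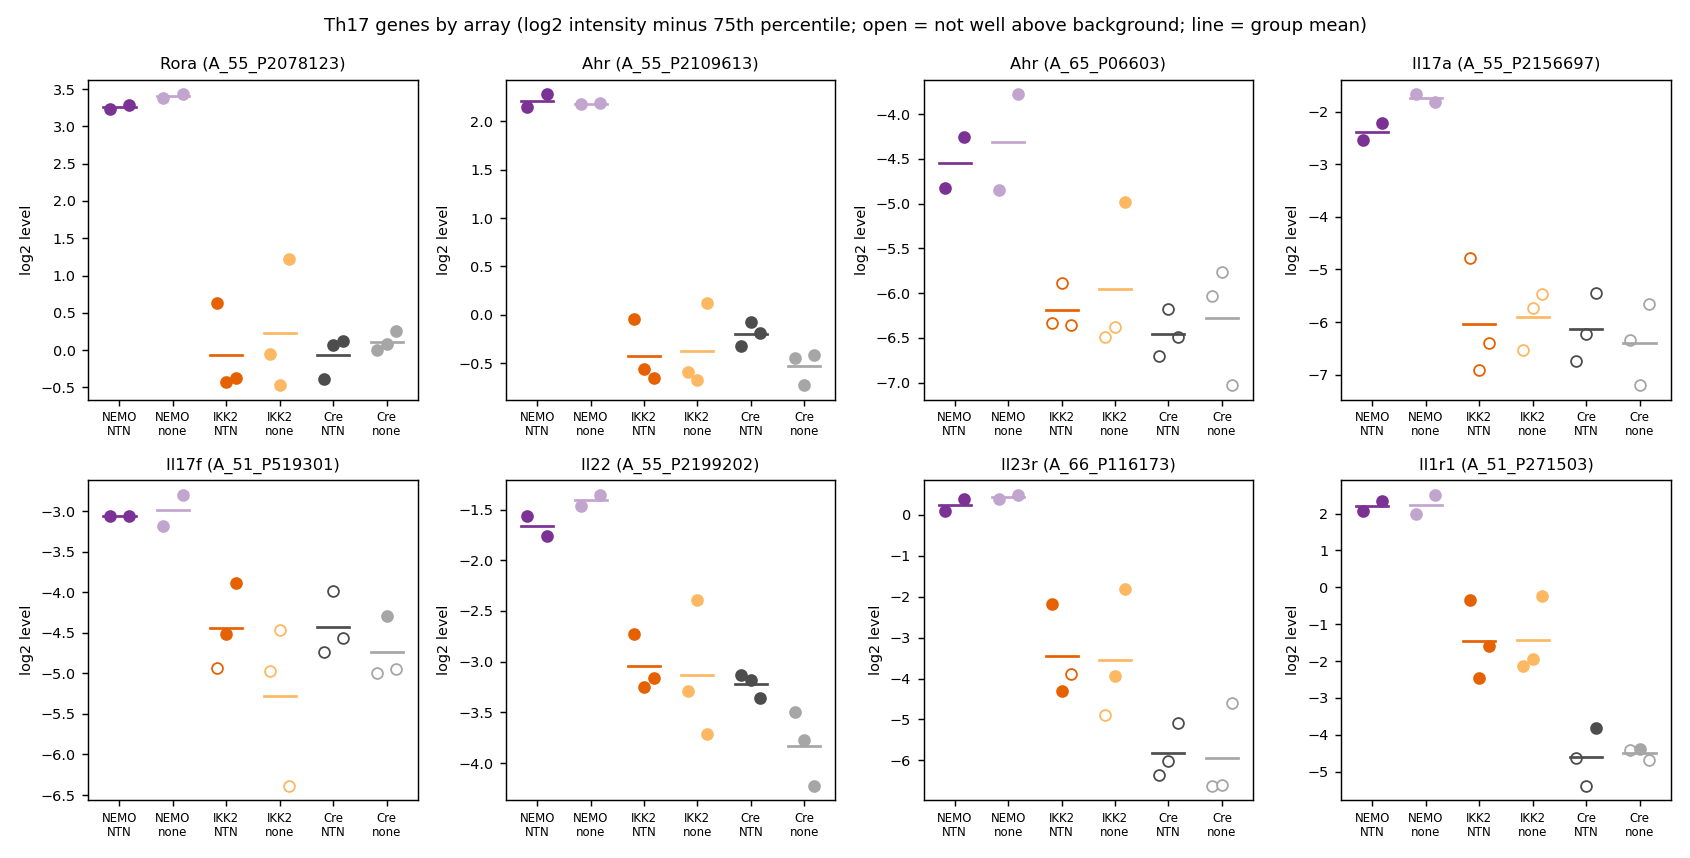
Level of each of the 8 probes on every array (y axis, log2 intensity minus the 75th percentile of the array), by group from NEMO knockout with nephritis (NTN) at the left to untreated Cre controls at the right. Points are arrays, open where the probe was not well above background, and lines are group means. The 4 NEMO knockout points lie above all others in each panel, and Il1r1 in IKK2 knockout arrays lies between the other genotypes.

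Rora encodes RORa, a nuclear receptor that acts in Th17 cells and is also needed by innate lymphoid cells. Its level was 3.24 and 3.29 in nephritic NEMO knockout arrays and 3.38 and 3.43 in untreated ones. It was 0.63, -0.43 and -0.38 in nephritic and -0.05, -0.47 and 1.23 in untreated IKK2 knockout arrays, and -0.39, 0.07 and 0.12 in nephritic and -0.00, 0.08 and 0.25 in untreated controls. The NEMO knockout arrays stood clear of the other genotypes, whose ranges overlapped. NEMO knockout minus control was 3.33 with nephritis (SE 0.42, adjusted p = 9.7e-05), a 10.1-fold difference, and 3.30 without (SE 0.42, adjusted p = 0.000112), a 9.82-fold difference. Relative to IKK2 knockout cells the difference was 3.32 with nephritis (adjusted p = 9.89e-05) and 3.17 without (adjusted p = 0.000244).

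Ahr encodes the aryl hydrocarbon receptor, which senses dietary and microbial ligands. Its brighter probe read 2.15 and 2.28 in nephritic and 2.17 and 2.19 in untreated NEMO knockout arrays. It read -0.05, -0.56 and -0.66 in nephritic and -0.59, -0.67 and 0.12 in untreated IKK2 knockout arrays, and -0.32, -0.07 and -0.19 in nephritic and -0.45, -0.73 and -0.41 in untreated controls. All 16 arrays measured it, and IKK2 knockout and control arrays overlapped in both conditions. NEMO knockout minus control was 2.41 with nephritis (SE 0.23, adjusted p = 1.38e-05) and 2.71 without (SE 0.23, adjusted p = 6.95e-06), and NEMO knockout minus IKK2 knockout was 2.64 (adjusted p = 7.8e-06) and 2.56 (adjusted p = 2.2e-05). The dim second Ahr probe was measured on the 4 NEMO knockout arrays and on 1 untreated IKK2 knockout array only. It entered the tests only through the NEMO knockout arrays, where it is high, so its calls add no support. Its difference passed in all 4 comparisons, but as a bound, explained with Il17a, it came to at least 1.37-fold higher in untreated NEMO knockout cells than in controls (adjusted p = 0.0077), at least 1.19-fold against nephritic IKK2 knockout cells (adjusted p = 0.0174), and no fold against nephritic controls. Against untreated IKK2 knockout cells it was 1.64 (adjusted p = 0.0246). With another background correction (normexp) the 4 differences lay between -0.10 and 0.12 and none was called. Each was also lost without NEMO knockout replicate 2 of its condition (adjusted p = 0.0777 to 0.224), and that against untreated IKK2 knockout cells without their replicate 1 or 2 (adjusted p = 0.0761 and 0.0777) or with only the arrays compared (adjusted p = 0.13).

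Il17a encodes the signature cytokine of the lineage. Its probe read -2.55 and -2.22 in nephritic NEMO knockout arrays and -1.67 and -1.81 in untreated ones. It was not well above background on any of the 12 IKK2 knockout and control arrays, where its signal read between -7.20 and -4.78. This difference is therefore given as a bound, the ratio of the bright group to the higher of the dim probe and the lowest signal well above background on each dim array. Il17a was at least 4.07-fold higher in nephritic NEMO knockout cells than in nephritic controls (adjusted p = 0.000517) and at least 8.16-fold higher without nephritis (adjusted p = 0.000132). Relative to IKK2 knockout cells it was at least 4.66-fold higher with nephritis (adjusted p = 0.000637) and at least 6.84-fold higher without (adjusted p = 0.000455). These bounds hold for this background treatment only: with normexp Il17a differed by 0.82 and 1.25 from nephritic and untreated controls and by 0.77 and 1.22 from IKK2 knockout cells, smaller folds than the bounds, and all 4 differences were called.

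Il17f, the neighbour of Il17a on chromosome 1 and a cytokine that pairs with it as a heterodimer, was the member with the smallest differences from controls and the least stable calls. It read -3.07 and -3.06 in nephritic and -3.18 and -2.80 in untreated NEMO knockout arrays. It read -4.94, -4.51 and -3.89 in nephritic and -4.97, -4.47 and -6.38 in untreated IKK2 knockout arrays, and -4.73, -3.99 and -4.56 in nephritic and -4.99, -4.29 and -4.95 in untreated controls. Of those 12 arrays, 2 nephritic IKK2 knockout arrays and 1 untreated control array measured it. It was at least 2.21-fold higher in nephritic NEMO knockout cells than in nephritic controls (difference 1.37, SE 0.48, adjusted p = 0.039), and 1.75 higher without nephritis (SE 0.48, adjusted p = 0.013). Against IKK2 knockout cells it was 1.39 higher with nephritis (adjusted p = 0.0359) and at least 2.88-fold higher without (adjusted p = 0.00413). With normexp the 4 differences were 0.07 to 0.38 and none was called. With nephritis the call was also lost without either NEMO knockout array (adjusted p = 0.133 and 0.137 against controls, 0.126 and 0.129 against IKK2 knockout cells). It was lost as well without control replicate 1 or 3 (adjusted p = 0.1 and 0.0833) or IKK2 knockout replicate 1 or 2 (adjusted p = 0.105 and 0.077), and untreated NEMO knockout minus control lost it without NEMO knockout replicate 2 (adjusted p = 0.0928).

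Il22 encodes a cytokine that acts on epithelial cells and has a near-identical copy, Iltifb, in some mouse strains, whose transcript this probe may not separate. It read -1.57 and -1.76 in nephritic and -1.46 and -1.35 in untreated NEMO knockout arrays. It read -2.73, -3.25 and -3.17 in nephritic and -3.29, -2.40 and -3.72 in untreated IKK2 knockout arrays, and -3.13, -3.18 and -3.36 in nephritic and -3.49, -3.78 and -4.22 in untreated controls. All 16 arrays measured it, the NEMO knockout arrays did not overlap the others, and IKK2 knockout and control arrays overlapped. NEMO knockout minus control was 1.56 with nephritis (SE 0.32, adjusted p = 0.00232), a 2.95-fold difference, and 2.42 without (SE 0.32, adjusted p = 0.000138), a 5.36-fold difference. Set against IKK2 knockout cells it was 1.38 (adjusted p = 0.00477) and 1.73 (adjusted p = 0.00197), and the untreated call was lost with only the arrays compared (adjusted p = 0.0591). With normexp the differences were 0.56 and 1.02 from controls and 0.55 and 0.80 from IKK2 knockout cells, all of them called.

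Il23r encodes the chain that makes the IL-23 receptor specific for IL-23. It read 0.11 and 0.38 in nephritic and 0.39 and 0.49 in untreated NEMO knockout arrays. It read -2.17, -4.30 and -3.89 in nephritic and -4.88, -3.95 and -1.81 in untreated IKK2 knockout arrays, and 2 arrays of each of these groups measured it. In controls, where no array measured it, its signal read -6.35, -6.02 and -5.08 with nephritis and -6.62, -6.61 and -4.59 without. Il23r was at least 25.1-fold higher in nephritic NEMO knockout cells than in nephritic controls (adjusted p = 0.000261) and at least 34.8-fold higher without nephritis (adjusted p = 0.000201). Against IKK2 knockout cells it was higher by 3.70 with nephritis (SE 0.89, adjusted p = 0.006) and by 3.99 without (SE 0.89, adjusted p = 0.00582), where the call was lost with only the arrays compared (adjusted p = 0.0564). With normexp Il23r differed by 2.67 and 2.76 from controls, smaller folds than the bounds, and by 2.16 and 2.24 from IKK2 knockout cells, all of them called.

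Il1r1 encodes the signalling receptor for IL-1. It was the only member called between IKK2 knockout and control cells, and its levels were ordered NEMO knockout, IKK2 knockout, control. It read 2.06 and 2.33 in nephritic and 1.98 and 2.51 in untreated NEMO knockout arrays. It read -0.34, -2.46 and -1.58 in nephritic and -2.14, -1.95 and -0.23 in untreated IKK2 knockout arrays, all of which measured it. In controls it read -4.64, -5.38 and -3.82 with nephritis and -4.42, -4.38 and -4.69 without, and 1 of 3 arrays in each condition measured it, so the control mean rests mostly on signal near background. None of the 3 genotypes overlapped another. NEMO knockout minus control was 6.81 with nephritis (SE 0.65, adjusted p = 1.38e-05) and 6.74 without (SE 0.65, adjusted p = 1.64e-05), and NEMO knockout minus IKK2 knockout was 3.65 (SE 0.65, adjusted p = 0.000952) and 3.68 (SE 0.65, adjusted p = 0.00147). With normexp these 4 were 4.17, 4.36, 3.03 and 3.07.

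**Figure D2:**
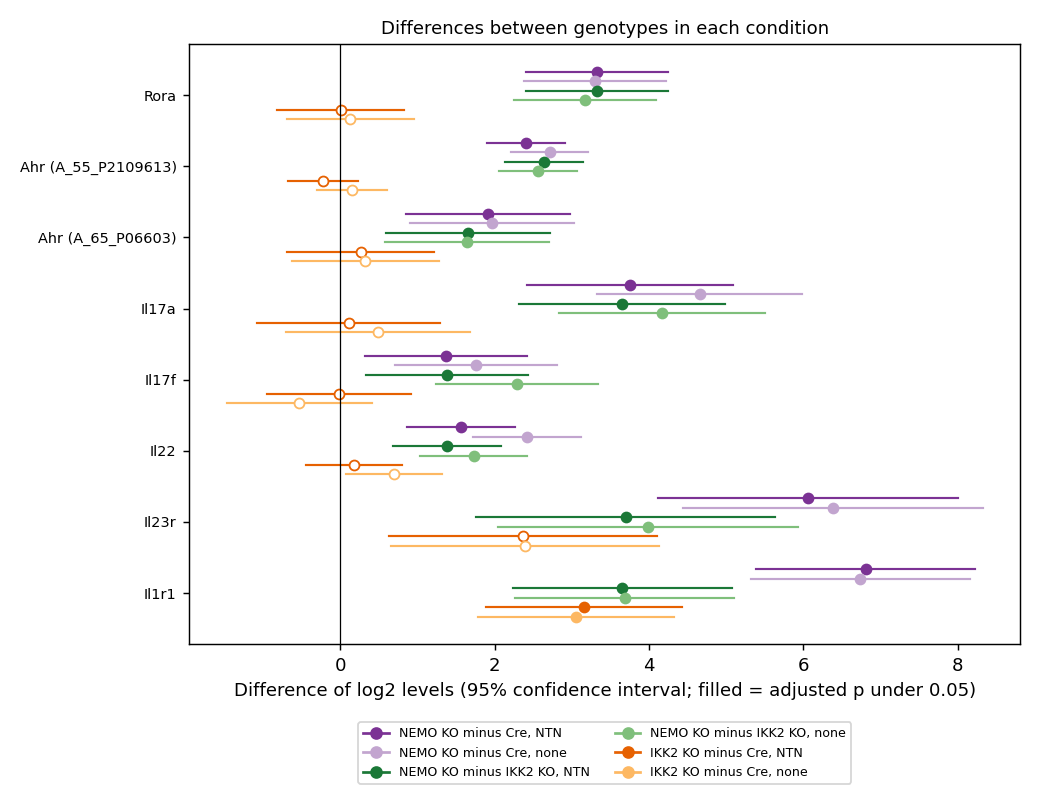
Difference between genotypes for each of the 8 probes (x axis, log2, points with 95% confidence intervals from the linear model), in mice with nephritis (NTN) and without. Filled points have an adjusted p under 0.05. All NEMO knockout differences are filled, and of the IKK2 knockout minus control differences only those of Il1r1 are.

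Between IKK2 knockout and control cells 1 of the 7 genes was called as higher in each condition, Il1r1, beside 0.504% of all probes called as higher with nephritis and 5.82% without. Il1r1 differed by 3.15 with nephritis (SE 0.58, adjusted p = 0.0284), an 8.89-fold difference, and by 3.05 without (SE 0.58, adjusted p = 0.00874), an 8.3-fold difference. All 6 IKK2 knockout arrays lay above all 6 control arrays for Il1r1, as for 1.39% of all probes. The 6 nephritic arrays share slide 1, and on that slide alone the difference was again 3.15 (SE 0.59, adjusted p = 0.128). The nephritic call also ended with a model of those 6 arrays only (adjusted p = 0.17), with normexp (1.14, adjusted p = 0.157), in the deposited log2 matrix (1.75, adjusted p = 0.062) and without control replicate 1 or 2 (adjusted p = 0.0675 and 0.0918) or IKK2 knockout replicate 1 or 3 (adjusted p = 0.0765 and 0.0751). It ended without nephritic control replicate 2 and untreated control replicate 1 together as well (adjusted p = 0.116). Without nephritis the difference was 4.26 with slide as a block (SE 0.68, adjusted p = 0.0153). It was the same within slide 2, which holds 1 IKK2 knockout and 3 control arrays, and the block estimate rests on that IKK2 knockout array too. The lowest value of this untreated difference over the alternatives was 1.29, so its size depends on the processing.

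Il23r differed by 2.37 between IKK2 knockout and control cells with nephritis (SE 0.80, adjusted p = 0.185, at least 1.94-fold) and by 2.40 without (SE 0.80, adjusted p = 0.0746, at least 2.19-fold), and neither difference passed. Without nephritis it passed with slide as a block (4.13, adjusted p = 0.0447) and without IKK2 knockout replicate 1 (3.06, adjusted p = 0.0485). The block estimate rests on untreated replicate 3, the only IKK2 knockout array on slide 2 with the untreated controls. The other 5 genes differed between IKK2 knockout and control cells by -0.23 (Ahr) to 0.18 (Il22) with nephritis and by -0.53 (Il17f) to 0.70 (Il22) without, and none passed. Of these 5 genes' 95% intervals the widest was that of Il17a, at -0.70 to 1.68 without nephritis. Within the IKK2 knockout, untreated replicate 3 and nephritic replicate 1 were the highest of their group for Rora, Ahr, Il23r and Il1r1.

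No member was called between nephritic and untreated cells of any genotype. The count of 0 compares with 0.255% of all probes called in either direction in NEMO knockout cells, 0.389% in IKK2 knockout cells and 3.12% in controls, where 2041, 4864 and 7737 probes had an unadjusted p under 0.05. None of the 7 genes had an unadjusted p under 0.05 in these comparisons, the lowest being that of Il22 in controls (0.0561). In NEMO knockout cells the differences, nephritic minus untreated on the same slide, ran from -0.64 for Il17a (95% interval -2.10 to 0.82) to 0.03 for Ahr (-0.52 to 0.58). In IKK2 knockout cells they ran from -0.30 for Rora (-1.12 to 0.53) to 0.83 for Il17f (-0.11 to 1.77), and in controls from -0.18 for Rora (SE 0.38) to 0.61 for Il22 (-0.02 to 1.23). Ahr differed by 0.34 in controls (-0.11 to 0.78), on different slides, as for every control gene. With slide as a block, the control differences of Rora, Il17f, Il22 and Il1r1 changed sign, to 1.31, -1.35, -0.27 and 1.70, and none was called. The slide term of that model rests on untreated IKK2 knockout replicate 3, since no other group had arrays on both slide 1 and slide 2. These sign changes therefore depend on that array. Of 7 neutrophil markers 6 had a probe. None was called as higher with nephritis in any genotype, and Elane fell by 0.81 in controls (SE 0.14, adjusted p = 0.016). Their summed level, in units of the 75th percentile of the array, was 20.8 to 89.8 on nephritic against 2.29 to 3.99 on untreated NEMO knockout arrays, 12.1 to 71.1 against 4.82 to 6.25 on IKK2 knockout arrays, and 3.57 to 22.6 against 2.30 to 2.99 on controls. Ngp was not well above background on any untreated control array, and the part of such cells in the values above was not tested.

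**Figure D3:**
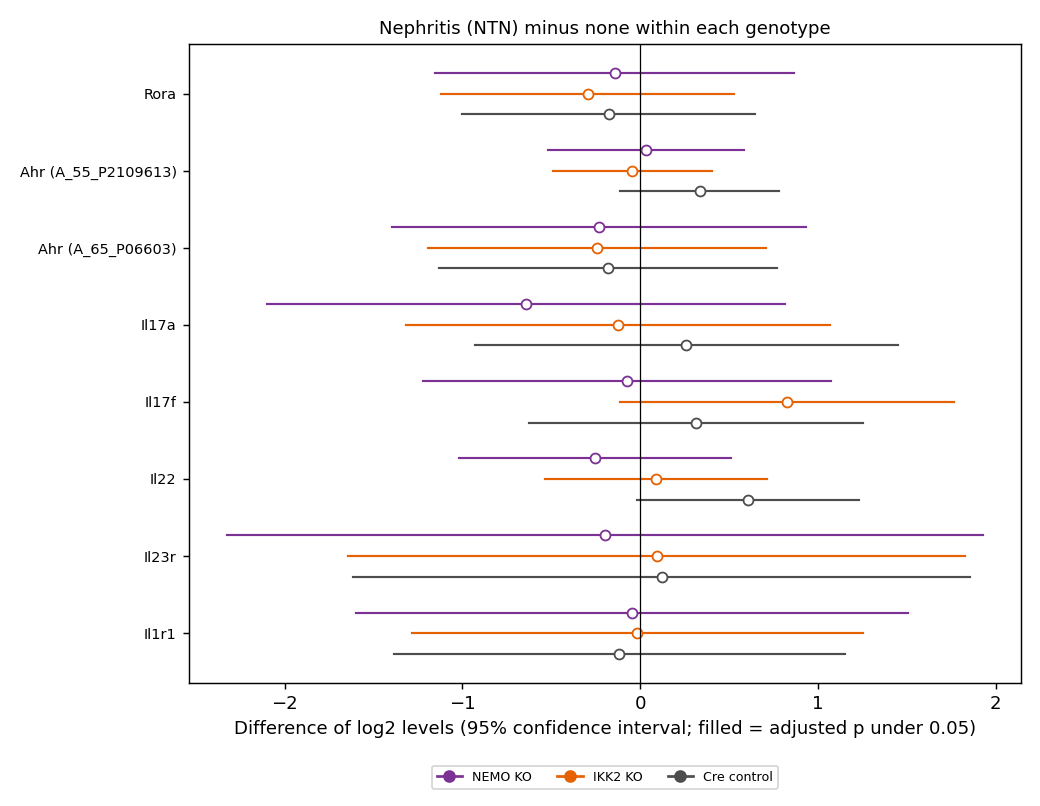
Difference of nephritic minus untreated cells within each genotype for the 8 probes (x axis, log2, points with 95% confidence intervals from the linear model). All points are open, which marks an adjusted p of 0.05 or more, and all intervals include 0.

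The difference of the nephritis response between genotypes was tested for each gene, and 0 of 7 were called in each of the 3 comparisons. The background was 0.498% of all probes for IKK2 knockout minus control, 0.0916% for NEMO knockout minus control and 0.263% for NEMO knockout minus IKK2 knockout, with 6399, 3331 and 3728 probes at an unadjusted p under 0.05. The response of Il22 in NEMO knockout cells minus that in controls was -0.86 (95% interval -1.85 to 0.13, unadjusted p = 0.0815, adjusted p = 0.567). The corresponding value of Il17a was -0.90 (-2.78 to 0.98) and that of Il1r1 0.07 (-1.94 to 2.08).

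Of 36 other Th17 pathway genes, 32 passed the filter on dim probes, and Ccl20, Il22ra2, Cyp1a1 and Cyp1b1 did not. In NEMO knockout minus control cells 14 rose, 5 fell and 13 did not pass with nephritis, and 15 rose, 4 fell and 13 did not pass without. The list's median difference was 0.33 with nephritis and 0.64 without, beside -0.19 and -0.17 over all probes. Against IKK2 knockout cells 19 rose, 8 fell and 5 did not pass with nephritis, and 16, 6 and 10 without. Of these calls, 12 of 27 with nephritis and 10 of 22 without were lost in some alternative processing or set of arrays. In 1 alternative an untreated difference changed sign. Of the calls against controls, 3 of 19 were lost in some alternative in each condition. Over all probes the shares called as lower were 27.2% with nephritis and 24.3% without for NEMO knockout minus control, and 28.6% and 18.5% for NEMO knockout minus IKK2 knockout. Of the receptors, Il17rc and Il17re, chains that pair with Il17ra to receive IL-17A and IL-17F (Il17rc) or IL-17C (Il17re), rose by 6.38 (SE 0.67) and 6.31 (SE 0.62) in nephritic NEMO knockout cells relative to controls and by 6.58 and 6.46 in untreated ones. Ccr6, the chemokine receptor of Th17 cells, rose by 4.26 and 4.20 (SE 0.54 each), and Il1r2, the decoy receptor for IL-1, by 2.96 and 2.97 (SE 0.50 each). Il18r1, the IL-18 receptor, rose by 2.58 and 2.64 (SE 0.32 each), and its dimmer probe differed by 4.33 and 2.49. With normexp Il17rc differed by 4.74 and 5.15, Il17re by 5.07 and 5.49, and Il1r2 by 1.58 and 1.25.

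Csf2, the cytokine GM-CSF, rose by 2.95 with nephritis and 2.47 without (SE 0.36 each) in NEMO knockout cells relative to controls, and by 1.08 and 0.98 with normexp. Relative to IKK2 knockout cells, Maf, a factor for IL-10 and IL-21 expression, rose by 3.35 with nephritis and 3.14 without (SE 0.44 each), and Tbx21, which encodes the Th1 factor T-bet, by 3.39 with nephritis (SE 0.49). Il12rb1, the receptor chain that IL-23 shares with IL-12, rose against IKK2 knockout cells by 2.78 with nephritis and 2.47 without (SE 0.41 each). The genes that fell against controls, named here after their values were seen, were Il6ra and Il6st, the IL-6 receptor chains, the IL-21 receptor Il21r and the IL-10 family cytokine Il24 in both conditions, and Tgfbr2 with nephritis. Il6ra fell by 2.29 with nephritis and by 2.16 without (SE 0.12 each), and Il6st by 1.83 and 1.71 (SE 0.14 each).

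In IKK2 knockout minus control cells 2 of the 32 genes rose and 1 fell with nephritis, and 4 rose and none fell without. Of all probes 0.504% were called as higher and 0.538% as lower with nephritis, and 5.82% and 5.14% without. Il17rc rose by 3.14 with nephritis (SE 0.60, adjusted p = 0.0318) and 3.23 without (SE 0.60, adjusted p = 0.00781), and Il17re by 3.01 (SE 0.55, adjusted p = 0.0279) and 2.76 (SE 0.55, adjusted p = 0.0108). With normexp Il17rc differed by 1.82 with nephritis, where its call was lost (adjusted p = 0.102), and by 2.02 without. Il17re then differed by 2.01 and 2.005, and both differences were called. Gata3, the Th2 factor, fell by 0.42 with nephritis (SE 0.09, adjusted p = 0.0448), and Il21r and Il17ra rose by 0.46 (SE 0.08) and 0.42 (SE 0.10) without. With only the arrays compared all 7 calls were lost (adjusted p = 0.143, 0.157 and 0.158 for Il17rc, Il17re and Gata3 with nephritis, and 0.0577, 0.0577, 0.0946 and 0.177 for Il17rc, Il17re, Il21r and Il17ra without). Between nephritic and untreated controls 1 of the 32 genes was called, beside 3.12% of all probes. It was Il10, an anti-inflammatory cytokine, named after its value was seen and at least 2.18-fold higher with nephritis (adjusted p = 0.025). This bound holds for this background treatment only. With normexp Il10 differed by 0.33 (adjusted p = 0.321) and in the deposited log2 matrix by 0.48 (adjusted p = 0.0497), smaller folds than the bound. Nephritic and untreated controls lie on different slides. With slide as a block, where the slide term again rests on untreated IKK2 knockout replicate 3, the Il10 difference was 0.59 (adjusted p = 0.731). None of the 34938 probes was then called, while 3374 had an unadjusted p under 0.05. None of the 32 passed in either knockout.

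The genes whose levels followed each member most closely were ranked by Pearson correlation over arrays, as a description. Arrays of a genotype share slides, and all NEMO knockout arrays share 1. For Il1r1 the closest were Il17re (0.993), Il17rc (0.990) and St6galnac2 (0.988), and the same genes led over the 12 IKK2 knockout and control arrays (0.979, 0.975 and 0.960). For Il23r, Cdk6 (0.981) and Arnt2 (0.977) led over 16 arrays and also over 12 (0.946 and 0.933). Rora was closest to Il18r1 (0.993), Ttc39c (0.992) and Myo1f (0.992), and Ahr to Ric1 (0.996), Ccr2 (0.993) and Prr13 (0.992). The values were lower for Il17a (Mdfic, 0.973), Il22 (Prom2, 0.937) and Il17f (Qpct, 0.898).

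Markers of other cells that can express these genes moved with genotype. Of 6 gamma delta T cell markers 4 had a probe (Sox13, Blk, Cd163l1 and 5830411N06Rik), and their summed level, in units of the 75th percentile of the array, was 10.4 to 14.3 on NEMO knockout arrays, 1.36 to 3.21 on IKK2 knockout arrays and 1.02 to 1.60 on controls. Cd163l1 rose by 4.54 in nephritic NEMO knockout cells relative to controls and by 5.23 in untreated ones (SE 0.55 each), whereas Sox13 differed by -0.20 and did not pass with nephritis and fell by 0.78 without. Blk was not well above background on any control array and was at least 1.13-fold higher in nephritic (adjusted p = 0.00237) and 1.99-fold higher in untreated NEMO knockout cells (adjusted p = 2.99e-05). Of the receptor genes that would define these cells, Tcrg-C1 and Trdc were not analysed here.

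All 5 markers of group 3 innate lymphoid cells were measured. Their sum was 93.1 to 111 on NEMO knockout arrays, 26.8 to 43.0 on IKK2 knockout arrays and 46.6 to 57.4 on controls. The control sum is mostly Il7r, whose mean log2 level there was 5.55 with nephritis and 5.58 without. Tmem176b, the next brightest, had means of 1.78 and 1.37 in controls and of 5.71 and 5.89 in NEMO knockout cells. The sum therefore follows these genes more than the other markers, and Ncr1 is also in the CD8 T and NK cell list. Tmem176a and Tmem176b rose by 4.22 (SE 0.38) and 3.92 (SE 0.41) in nephritic NEMO knockout cells relative to controls, and Kit by 2.14 (SE 0.35), while Il7r fell by 0.55 (SE 0.16). In untreated IKK2 knockout cells 4 of the 5 rose and Il7r fell, although the sum was lower than in controls: Kit rose by 3.13 (SE 0.31), Ncr1 by 2.58 (SE 0.41), Tmem176a by 2.12 (SE 0.34) and Tmem176b by 1.91 (SE 0.37), and Il7r fell by 1.27 (SE 0.14). With nephritis Il7r alone passed, and fell by 0.93 (SE 0.14). Blk was at least 1.84-fold higher in untreated IKK2 knockout cells (adjusted p = 0.00048). In that comparison 6 of the 7 B cell markers also rose and 1 did not pass, beside 5.82% of all probes called as higher. In untreated NEMO knockout minus control cells, where Blk rose too, 5 of the 7 rose and 2 did not pass, beside 14.5%. With nephritis 1 rose there and 6 did not pass, beside 13.8%. The 7 B cell markers summed to 15.3 to 19.0 on NEMO knockout arrays, 10.6 to 18.2 on IKK2 knockout arrays and 2.86 to 12.1 on controls, with Pax5 not well above background on any NEMO knockout or control array. The 7 CD8 T and NK cell markers summed to 6.02 to 8.85 on NEMO knockout arrays, 4.92 to 8.87 on IKK2 knockout arrays and 4.70 to 7.48 on controls, and 5 rose and 1 fell in each untreated knockout relative to controls. The 3 NKT cell markers summed to 2.07 to 3.92, 0.944 to 1.41 and 2.33 to 5.33, and all 3 fell in untreated IKK2 knockout and 2 in untreated NEMO knockout cells. Of all probes, 5.82% were called as higher and 5.14% as lower in untreated IKK2 knockout minus control cells. The shares for untreated NEMO knockout minus control cells were 14.5% and 24.3%. Myeloid markers summed to 36.5 to 59.8, 29.7 to 59.3 and 31.8 to 88.7, and 5 of the 7 with a probe rose in each untreated knockout. The untreated sums were nevertheless lower in the knockouts, at 50.8 to 59.8 for NEMO and 39.7 to 59.3 for IKK2, against 66.4 to 88.7 in controls. The CD4 T cell list summed to 884 to 947 on NEMO knockout arrays, 983 to 1085 on IKK2 knockout arrays and 1012 to 1146 on controls. Within the IKK2 knockout, untreated replicate 3 and nephritic replicate 1, the arrays highest for Rora, Ahr, Il23r and Il1r1, also had the highest sums of the gamma delta list (3.21 and 2.52) and of the innate lymphoid list (39.9 and 43.0) in their groups. The part of such cells in the differences of the 7 genes was not tested.

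**Figure D4:**
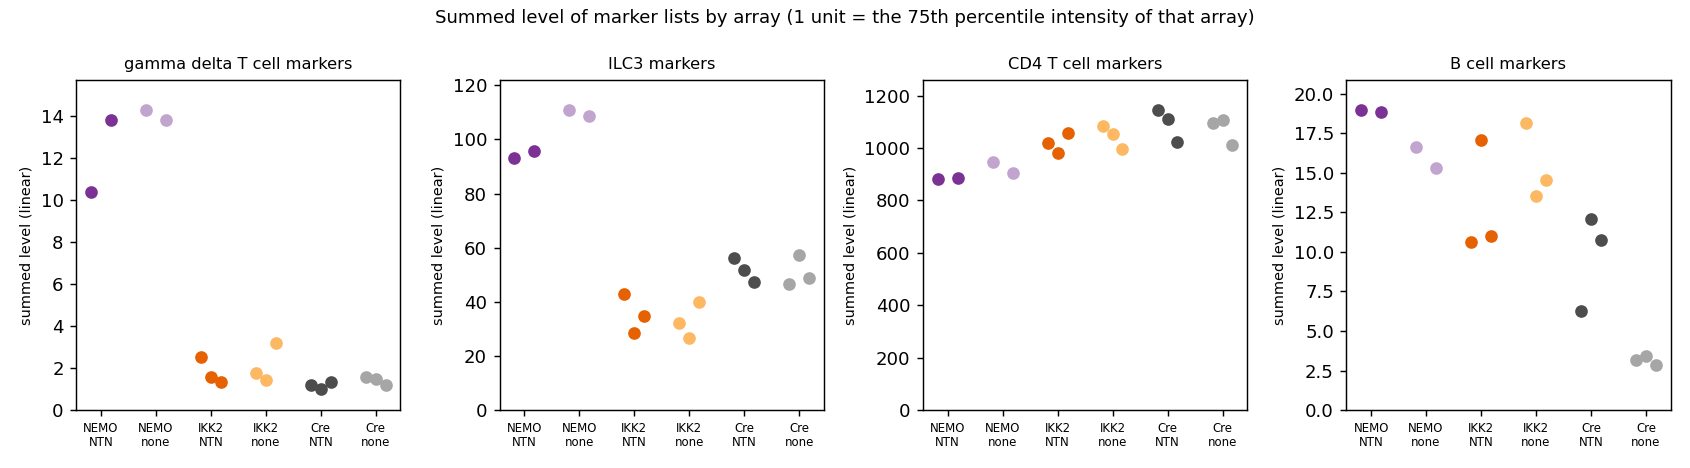
Summed level of 4 marker lists on every array (y axis, linear, in units of the 75th percentile intensity of the array; points are arrays), by group from NEMO knockout with nephritis at the left to untreated controls at the right. The gamma delta and innate lymphoid sums are highest on the 4 NEMO knockout arrays, where the CD4 T cell sum is lowest, and the B cell sum is lowest on the untreated controls.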

How the data were processed

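Per the labels' protocols, CD4+ T cells were enriched from spleen with a kit, sorted, and their RNA labelled with Cy3. The authors deposited 1 scanner file per array with linear spot intensity, background-subtracted by Agilent Feature Extraction (10.7.3.1 per the file headers, 10.5 per the submitters' processing notes; design build mm9), and a matrix of log2 values, also deposited, for which no method is named in the labels or headers. Its column medians were 5.65 to 5.68; its scale is log2 and it is not centred by gene, and its background treatment is unknown. Control and outlier spots were left out and spots of a probe averaged. Array 75th percentiles of intensity were 237 to 419, and the number of arrays limits the precision. Gene symbols came from the probes' accessions through RefSeq (27242 probes with 1 symbol, 28439 with none). The linear model of 6 group means (limma 3.58.1, R 4.3.3, lmFit and eBayes, 11.8 degrees of freedom) took the 34938 probes that 2 or more arrays measured above background and was tested on simulated data. Python 3.11.15, numpy 2.4.6, pandas 2.3.3 and matplotlib 3.10.9 made tables and plots. A gene with several probes is counted by its brightest. P-values are two-sided, adjusted within each of 12 comparisons, and comparisons share arrays. Normexp used median spot signals, since no mean column was present in the files read.

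The genes and lists were chosen with earlier results of these data known. Pathway genes are named where they passed in a comparison with a member called, at most the 6 largest per comparison, and neighbours are the 3 genes of highest correlation. Markers of B, CD8 T and NK, NKT, myeloid, neutrophil, mast and stromal cells were measured as well. Summed levels of the mast cell list were 0.0738 to 0.616 on NEMO knockout, up to 0.327 on IKK2 knockout and 0.0558 to 2.82 on control arrays, and those of the stromal list 1.62 to 2.08, 2.58 to 3.21 and 0.955 to 2.98. One further gene of the pathway and innate lymphoid lists is not reported here and is left out of their counts and sums.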

Additional observations from a re-analysis of the deposited data

How the results depend on the processing

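Counts are of the 7 genes called. NEMO knockout minus control and minus IKK2 knockout gave 7 in each condition, and the counts stayed at 6 or 7 in every alternative except a model of only the arrays compared for untreated NEMO knockout minus IKK2 knockout, which gave 4 (Il17f, Il22 and Il23r lost, adjusted p = 0.0715, 0.0591 and 0.0564). Normexp gave 6 in each of these comparisons, Il17f being the gene lost. IKK2 knockout minus control with nephritis gave 1, and 0 with normexp, with the deposited log2 matrix, with no filter on dim probes, with only the arrays compared, with slide 1 only and without both control arrays that stood apart (untreated replicate 1 and nephritic replicate 2). Without nephritis it gave 1, and 2 with slide as a block and 0 within slide 2, an alternative added after seeing the data. Leaving out 1 array at a time gave 6 to 7 for NEMO knockout minus control in each condition and minus IKK2 knockout with nephritis, 7 for untreated NEMO knockout minus IKK2 knockout, 0 to 1 for IKK2 knockout minus control with nephritis and 1 to 2 without (Il23r, or Il22 without untreated IKK2 knockout replicate 3, adjusted p = 0.0362). The 6 nephritis and response comparisons gave 0 in every alternative, and of 940 recomputed differences that were not called (Il23r between IKK2 knockout and control cells apart), 129 changed sign and 1 passed. No called difference of the 7 genes changed sign except that of the dim Ahr probe with normexp (-0.045 against controls and -0.10 against IKK2 knockout cells, both with nephritis). Slide as a block could not be fitted for NEMO knockout against other genotypes. Where arrays of slides 1 and 2 were compared, its slide term rested on untreated IKK2 knockout replicate 3 against replicates 1 and 2 of that group.

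Replicate numbers gave no sign of pairing the samples: same-numbered arrays' deviations correlated at -0.19 to 0.14, over 0.1 in 1 of 36 pairs. With groups of 2 or 3 arrays this check could miss a pairing. With replicate number as a block (replicate block) the counts were 6 and 7 for NEMO knockout minus control with and without nephritis, 7 and 7 for NEMO knockout minus IKK2 knockout, 1 and 1 for IKK2 knockout minus control, and 0 elsewhere, and the gene lost was Il17f (adjusted p = 0.052). Over all probes, the share of calls that were higher in nephritic NEMO knockout minus control was 33.6%, and 21.2% with normexp, which shifted the median of all probes to -0.28 against -0.19. For nephritic IKK2 knockout minus control it was 48.4%, 37.2% with normexp and 63.2% with the percentile taken over probes above background on all arrays. Il17a, Il17f and Il23r rest wholly or in part on signal near background outside the NEMO knockout, and Il1r1 does mostly so in controls. This limits the size of their differences. The count of all probes called, with its range over the alternatives, those with fewer arrays, fewer probes or all probes tested included, moved by over 1.5 times in every comparison. With and without nephritis it was 14336 (7097 to 25180) and 13553 (6315 to 14111) for NEMO knockout minus control, 14855 (6768 to 24606) and 10346 (4091 to 11214) for NEMO knockout minus IKK2 knockout, and 364 (32 to 435) and 3832 (0 to 4632) for IKK2 knockout minus control. For nephritic minus untreated it was 89 (0 to 96) in NEMO knockout, 136 (0 to 223) in IKK2 knockout and 1089 (0 to 1194) in control cells, and for the difference between these responses 32 (0 to 54) for NEMO knockout minus control, 92 (0 to 157) for NEMO knockout minus IKK2 knockout and 174 (0 to 598) for IKK2 knockout minus control.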
